A study of Mus musculus with 6 samples.

Results

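The SoxC transcription factors Sox11, Sox4 and Sox12 were followed across the Eµ-SOX11CCND1 mouse model of mantle cell lymphoma, in which Sox11 is one of the drivers. They were chosen by family membership and found by Ensembl gene ID as 3 of 56884 genes in a table of raw read counts. The tested libraries came from the spleens of 3 passage 1 (P1) mice, replicates 3, 4 and 5, of the study's adoptive transfer model. The model's name gives an Eµ element, the immunoglobulin heavy chain enhancer active in B-lineage cells, with SOX11 and CCND1. The reference libraries were splenic B cells obtained by selection from 3 wild-type (WT) mice, marked BL6 in the column headers and called WT A, B and C here. Age, sex and the strain of the recipients were not given in the sources used here, nor was whether the transgenes are mouse or human sequence or whether the P1 spleens received cells of a single tumour. Selection, genotype and tumour differ together between the groups and cannot be told apart.

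SoxC proteins bind DNA through a shared HMG box and activate transcription through a shared C-terminal region. They act redundantly in embryonic neural, heart and skeletal progenitors. Sox4 is needed for early B cell development in mice, Sox12 is the weakest activator of the family and is also used by T cells, and SOX11 is absent from normal B cells but is switched on in most human mantle cell lymphomas.

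The coding sequences of the HMG box of Sox11 and Sox4 are shown because the box is the DNA-binding part that SoxC proteins share, and because likeness at this level bears on whether reads of the driver and its paralog can be told apart. They were read from the GENCODE M21 transcripts as the 79 codons around the conserved start of the box. Capitals mark the 26 of 237 positions at which Sox11 and Sox4 have different bases.
Sox11, coding bases 142 to 378: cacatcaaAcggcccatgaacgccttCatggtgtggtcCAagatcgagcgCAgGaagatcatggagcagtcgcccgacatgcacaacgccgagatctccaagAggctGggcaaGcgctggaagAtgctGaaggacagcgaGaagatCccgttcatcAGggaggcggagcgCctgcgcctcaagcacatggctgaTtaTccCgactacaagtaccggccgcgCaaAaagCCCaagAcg
Sox4, coding bases 172 to 408: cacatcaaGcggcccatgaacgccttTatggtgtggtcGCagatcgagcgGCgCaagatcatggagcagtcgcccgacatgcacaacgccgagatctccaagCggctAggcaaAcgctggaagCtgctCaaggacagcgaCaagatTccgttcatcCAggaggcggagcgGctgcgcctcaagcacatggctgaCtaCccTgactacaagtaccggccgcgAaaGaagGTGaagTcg
Sox11 and Sox4 were identical at 211 of these bases (89.0%). The longest run of identical bases between their whole transcripts was 48. The read length was not given in the sources used here. Reads longer than this run that lie within these transcripts differ between Sox11 and Sox4 in at least 1 base.

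Library totals were 7510327 to 10363396 counts in P1 spleens and 12196413 to 14266132 in WT B cells. P1 replicate 4 stood apart from the other libraries. Mitochondrial genes took 17.4% of its counts, against 0.0854% to 3.40% in the other 5, and its TMM factor, edgeR's correction for composition, was 0.578 against 1.09 to 1.18. The summed level of 12 erythroid markers was 37037, 224330 and 6761 CPM (counts scaled to a common TMM library size) in P1 replicates 3, 4 and 5, against 128 to 160 CPM in WT B cells. The 17 B cell markers summed to 2051, 1496 and 3997 CPM in P1 spleens, against 11019 to 11764 CPM in WT B cells. Of the 17, 15 were lower in P1 spleens, beside 11% of all genes tested. In these bulk samples, fewer cells of a type and less RNA per cell cannot be told apart.

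Only 1 of the 3 SoxC genes changed past the threshold (edgeR quasi-likelihood test, Benjamini-Hochberg adjusted p under 0.05 over all genes tested). Sox11 rose, whereas the difference of neither Sox4 nor Sox12 passed. Across all 15462 genes tested, 27.9% were called, 16.9% as higher and 11% as lower.

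Sox11, the driver (ENSMUSG00000063632.7, GRCm39 chromosome 12, 27384263 to 27392573, minus strand), had 956, 4066 and 5584 counts in P1 replicates 3, 4 and 5, against 0, 1 and 0 in the 3 WT samples. These were 82.2, 941 and 648 CPM in P1 spleens, against 0, 0.0642 and 0 CPM in WT B cells. Every P1 library was high and the groups did not overlap, as in 22.9% of all tested genes with P1 spleens higher. The log2 fold change was 14.05 ± 1.38 (standard error, n = 3 per group, edgeR adjusted p = 0.000604). Since it rests on 1 WT count, the ratio of summed levels was 19556 with an exact 95% counting interval of 3509 to 772483. Sox11 is a driver of the model and passed the filter on low counts through the P1 spleens, where it is high. Its call was thus set in advance and is given as a check of the labels. The exact 95% counting intervals of the libraries at 0 reached 0.224 CPM in WT A and 0.279 CPM in WT C.

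The 3 P1 spleens differed widely in Sox11. Replicate 4 had 11.4 times and replicate 5 had 7.88 times the CPM of replicate 3, and their counting intervals were 912 to 970, 631 to 665 and 77.1 to 87.6 CPM, so counting error is smaller than this spread. The order of replicates 4 and 5 depended on the scaling. Scaled to the library total alone, with no TMM, Sox11 was at 92.3, 541 and 701 CPM in P1 replicates 3, 4 and 5. Replicate 3 was lowest either way.

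The Sox11 level did not follow the B cell marker level from spleen to spleen. Sox11 stood at 40.1, 629 and 162 CPM per 1000 CPM of the 17 B cell markers in P1 replicates 3, 4 and 5, so the spleen with the least B cell marker RNA had the most Sox11 relative to it. Ighv1-69, a heavy chain V gene, was at 168, 122 and 274 CPM in P1 spleens, against 5.09 to 7.71 CPM in WT B cells, and Sox11 was 0.489, 7.75 and 2.36 times that level. Ccnd1, the other driver and the cyclin that releases cells from G1, was at 105, 522 and 677 CPM in P1 spleens, against 4.91, 6.36 and 22.4 CPM in WT B cells. Of the 3 D cyclin genes, 2 were higher, Ccnd1 and Ccnd3, beside 16.9% of all genes tested. Ccnd3 was not called with library totals, with no filter or without WT A, B or C. Per kilobase of exon, Sox11 was at 0.443, 1.02 and 0.542 times the Ccnd1 level in P1 replicates 3, 4 and 5. Because the origin and length of the transgene transcripts are not known, the reads assigned to the mouse genes may be part of them and the exon length may not be theirs. This ratio, and the Sox11 levels per length and ranks, hold for the gene models of the table.

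Genes around Sox11 showed no reads. All 4 annotated genes within 250 kb of it had 0 counts in all 6 libraries, the nearest of them an unnamed gene 304 bases away. Sox4 had 8 neighbours within 250 kb, of which 4 were at 0 in every library. Cdkal1, 238033 bases from Sox4, was the tested one, at -0.83 log2 fold change (edgeR adjusted p = 0.0535). Sox12 lies in a denser stretch with 31 neighbours, 7 of them tested and none called higher or lower, beside 27.9% of all genes tested. Zcchc3, a nucleic acid sensor cofactor 13892 bases from Sox12, was at 1.44 (adjusted p = 0.113). No annotated gene overlapped any of the 3 SoxC genes, so none of their counts is shared with an overlapping or antisense gene of the table.

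Sox4, the family member of early lymphoid cells (ENSMUSG00000076431.5, chromosome 13, 29132902 to 29137696, minus strand), had 157, 23 and 75 counts in P1 replicates 3, 4 and 5, against 129, 205 and 241 in WT A, B and C. These were 13.5, 5.32 and 8.70 CPM in P1 spleens, against 7.82, 13.2 and 18.2 CPM in WT B cells. The groups overlapped, since P1 replicate 3 lay above both WT A and WT B, and P1 replicate 5 above WT A. The difference was -0.49 ± 0.45 on the log2 scale (edgeR adjusted p = 0.456). P1 replicate 4 was the lowest library, with a counting interval of 3.37 to 7.99 CPM from 23 counts.

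Sox12 (ENSMUSG00000051817.9, chromosome 2, 152235531 to 152239983, minus strand) had 64, 129 and 34 counts in P1 replicates 3, 4 and 5, against 75, 68 and 76 in WT A, B and C. These were 5.50, 29.9 and 3.94 CPM in P1 spleens, against 4.55, 4.37 and 5.75 CPM in WT B cells. One spleen, P1 replicate 4, stood 5.20 times above the next library in TMM-scaled CPM, and the other 2 spleens lay within counting intervals of WT libraries. The size of this step depended on the scaling. Scaled to the library total alone, with no TMM, Sox12 was at 6.18, 17.2 and 4.27 CPM in P1 replicates 3, 4 and 5. It was then at 5.37, 4.77 and 6.23 CPM in WT A, B and C. With library totals the log2 fold change was 0.75 (edgeR adjusted p = 0.418). The difference was 1.39 ± 0.73 on the log2 scale (edgeR adjusted p = 0.192), and without P1 replicate 4 it was -0.02 (adjusted p = 0.974). The counting interval of that library was 24.9 to 35.5 CPM, clear of the highest interval among the others, 4.53 to 7.19 CPM in WT C. Of the 15462 tested genes, 258 (1.67%) stood at least 4 times above each other library in P1 replicate 4, against 72 in P1 replicate 3 and 30 in P1 replicate 5. These counts also rest on TMM-scaled CPM, with a TMM factor of 0.578 in P1 replicate 4. That library also had the highest erythroid and mitochondrial levels. P1 replicates 3 and 5, with erythroid sums of 37037 and 6761 CPM, had Sox12 at 5.50 and 3.94 CPM. The part of erythroid and mitochondrial RNA in the Sox12 value of P1 replicate 4 was not tested.

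**Figure D1:**
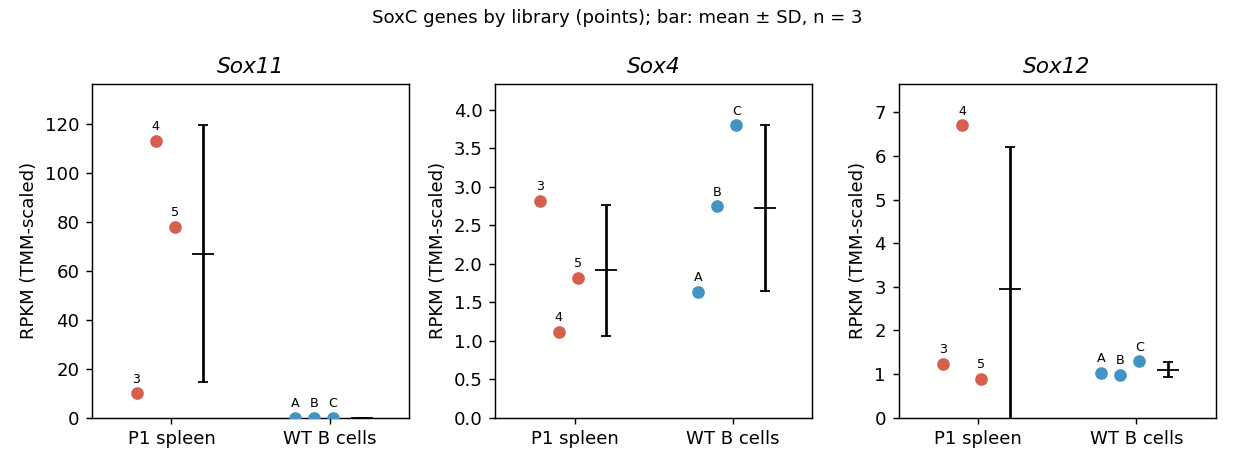
Level of each SoxC gene per kilobase of exon (RPKM, TMM-scaled, y axis, each panel on its own linear scale from 0) in the 3 P1 spleens and the 3 WT B cell samples (points, with the replicate beside each), and the mean with its SD (bar). For Sox12 in P1 spleen the SD is larger than the mean and its lower arm runs past 0 and is cut at the axis, because P1 replicate 4 was at 6.70 RPKM and the other P1 spleens at 1.24 and 0.886 RPKM.

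Levels were compared between the members per kilobase of exon (RPKM, TMM-scaled). In P1 spleens the order was Sox11 first, at 9.89, 113 and 77.9 RPKM, above both paralogs in every spleen. Sox4 at 2.82, 1.11 and 1.81 RPKM and Sox12 at 1.24, 6.70 and 0.886 RPKM overlapped, with Sox4 the higher in replicates 3 and 5 and Sox12 in replicate 4. In WT B cells Sox4 was first in each library, at 1.63, 2.75 and 3.80 RPKM, followed by Sox12 at 1.02, 0.981 and 1.29 RPKM without overlap, and then Sox11 at 0 to 0.00773 RPKM. Sox4 was above 23.4% to 38.9% of tested genes in P1 spleens, against 31.1% to 49.7% in WT B cells. Sox12 was above 22.3%, 63.0% and 22.6% of tested genes in P1 replicates 3, 4 and 5, against 23.2% to 27.5% in WT B cells. Sox11 was above 71.3%, 97.9% and 97.1% of tested genes in P1 replicates 3, 4 and 5, which ranked it 4443, 328 and 451 of 15462.

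The summed SoxC level was 13.9, 121 and 80.6 RPKM in P1 spleens, against 2.65, 3.73 and 5.09 RPKM in WT B cells. The P1 mean was 71.9 RPKM with P1 replicate 4 and 47.3 RPKM without it. Sox11 made up 70.9%, 93.5% and 96.7% of it in P1 replicates 3, 4 and 5, a mean of 87.0 ± 14.0% (SD, n = 3), against 0.069 ± 0.119% in WT B cells. The share of Sox4 was 7.79 ± 10.8% in P1 spleens, against 69.9 ± 7.29% in WT B cells, and the P1 mean was 1.58% without P1 replicate 3. The share of Sox12 was 5.17 ± 3.896% in P1 spleens, against 30.0 ± 7.34% in WT B cells. Each share differed without overlap, with exact two-sided permutation p = 0.1 for each of the 3, the smallest that 3 against 3 libraries allow. Adjusting over these 3 shares leaves it at 0.1. The 3 shares add up to 100% in each library, so they are not independent of each other. As Sox11 is a driver and near 0 in WT B cells, a larger Sox11 share and smaller other shares were set in advance by the model. These p-values therefore say nothing about the paralogs' own levels.

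**Figure D2:**
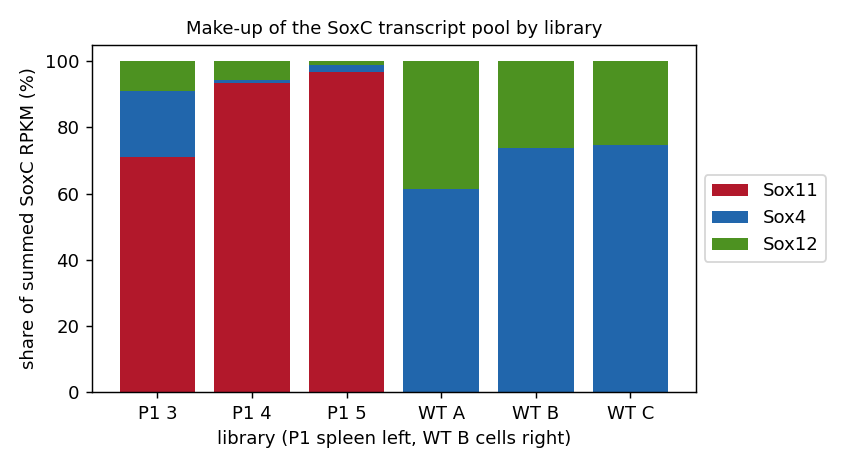
Share of the summed SoxC level (y axis, percent of RPKM) taken by Sox11, Sox4 and Sox12 in each library (x axis, P1 spleens left and WT B cells right), as stacked bars. Sox11 takes 70.9% to 96.7% of the bar in P1 spleens, whereas Sox4 and Sox12 take nearly all of it in WT B cells.

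The summed level of Sox4 and Sox12 alone was 4.86 ± 2.65 RPKM in P1 spleens, against 3.82 ± 1.22 RPKM in WT B cells (SD, n = 3 each, exact two-sided permutation p = 0.6). Without P1 replicate 4 the P1 mean was 3.38 RPKM, below that of WT B cells, so the direction rested on that library. The smaller shares of the paralogs in P1 spleens stood beside overlapping levels of their own. The log2 ratio of Sox4 to Sox12, which library scaling cannot alter, was 1.19, -2.59 and 1.04 in P1 replicates 3, 4 and 5, against 0.68, 1.49 and 1.56 in WT B cells. The mean difference was -1.36 (exact two-sided permutation p = 0.4), less than the spread of 2.14 (SD) between P1 spleens. Without P1 replicate 4 the difference was -0.13.

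The calls for the paralogs turned on how the libraries were scaled. Under scaling to equal levels of the 17 B cell markers, the median over all tested genes was at 2.45 on the log2 scale, against 0.02 under TMM. Sox4 was then called higher at 1.88 (edgeR adjusted p = 0.0127), below that median, and Sox12 at 4.22 (adjusted p = 0.00517), above it. Per 1000 CPM of B cell markers, Sox4 was at 6.58, 3.56 and 2.18 CPM in P1 spleens, against 0.675, 1.12 and 1.65 CPM in WT B cells. Sox12 was at 2.68, 19.96 and 0.987 CPM in P1 spleens, against 0.393, 0.371 and 0.521 CPM in WT B cells. The groups did not overlap in either ratio, and the P1 mean for Sox12 was 7.88 with P1 replicate 4 and 1.84 without it. Some markers of cells other than B cells were also higher in P1 spleens. Over all genes tested, 16.9% were higher and 11% were lower under TMM. Of 12 T cell markers, 11 were higher and 1, Cd2, was lower, and their sum was 299 to 685 CPM in P1 spleens, against 215 to 223 CPM in WT B cells. Of 4 regulatory T cell markers 2 were higher, and all 10 neutrophil markers were higher. The neutrophil markers summed to 958 to 7308 CPM in P1 spleens, against 2.44 to 7.64 CPM in WT B cells. They passed the filter on low counts through the P1 spleens, where they are high, so their count is given as a description. Some T cell and stromal markers, such as Themis and Col3a1, at most 9 and 1 counts in a WT library, passed it the same way. Of 10 macrophage markers 2 were higher under TMM, 10 under B-cell-centred scaling and 1 with no filter or without WT A or WT B. B-cell-centred scaling called 12920 of all 15462 genes tested higher. Under TMM, of 6 tested stromal and endothelial markers 4 were higher and 1 was lower, and of 6 tested plasma cell markers 1 was higher and 1 was lower. The summed stromal and endothelial markers were at 89.2 to 223 CPM in P1 spleens, against 261.5 to 314 CPM in WT B cells. Nearly all of the WT sum was Pecam1, the 1 called lower, at 259.5 to 309.9 CPM, against 74.7 to 104.6 CPM in P1 spleens. The 4 called higher were Col1a1, Col1a2, Col3a1 and Cdh5, so the direction of the sum was that of Pecam1 alone. The summed plasma cell markers were at 218 to 387 CPM, against 597 to 808 CPM. The part of all these cell types in the Sox4 and Sox12 counts was not tested.

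**Figure D3:**
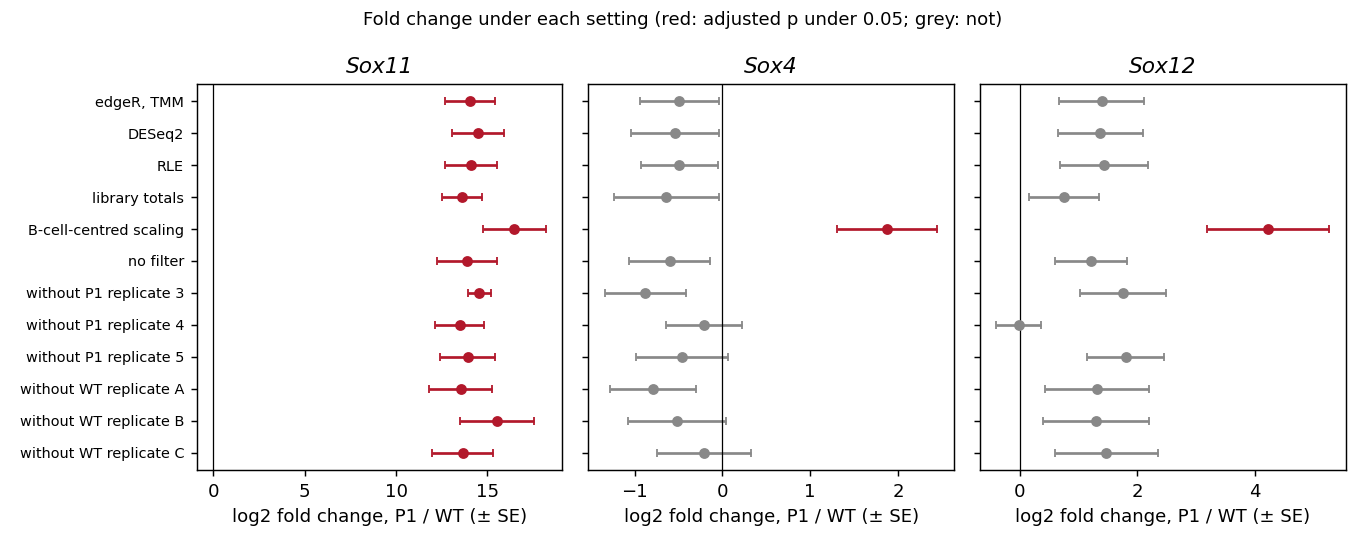
Log2 fold change of each SoxC gene, P1 spleen over WT B cells (x axis, with its standard error), under each setting (rows). Sox11 lies between 13.50 and 16.47 in all rows, Sox4 and Sox12 pass the threshold only under B-cell-centred scaling, and Sox12 drops to -0.02 without P1 replicate 4.

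Genes with the most similar pattern were found by the root mean square difference in log2 CPM, centred on each gene's mean over the 6 libraries. The matches were chosen for likeness over these same libraries. Their shared peaks, lows and calls follow from that choice and are given as a description. Sox12 had close matches, all of them highest in P1 replicate 4. They were Cdyl, a chromodomain corepressor, at a difference of 0.13, Star, a mitochondrial cholesterol carrier, at 0.14, Cdc42bpb, a cytoskeletal kinase, at 0.15, and Pink1, the mitochondrial quality control kinase, and Arglu1, a splicing cofactor, both at 0.21. Pink1 was at 114, 648 and 71.3 CPM in P1 replicates 3, 4 and 5, against 65.8, 93.4 and 117 CPM in WT A, B and C. None of the 5 was called, with adjusted p from 0.148 to 0.202 (edgeR). The nearest to Sox4 were Gng10, a G protein subunit (0.25), Mmd and Tmed10 (0.26 each), and Khk, ketohexokinase, and Ctns, a lysosomal cystine transporter (0.28 each). Each was lowest in P1 replicate 4, as Sox4 was. Sox11 had no close match, its nearest being the acute phase gene Saa3 at 1.10, followed by Slc4a1, the red cell anion exchanger, at 1.56, Chil3 (1.65), Slfn4 (1.71) and Trim58 (1.74). All 5 were high in every P1 spleen and near 0 in WT B cells, at most 6.24 CPM. Of the 5, Slc4a1 is an erythroid marker, at 7987, 13170 and 1880 CPM in P1 replicates 3, 4 and 5.

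**Figure D4:**
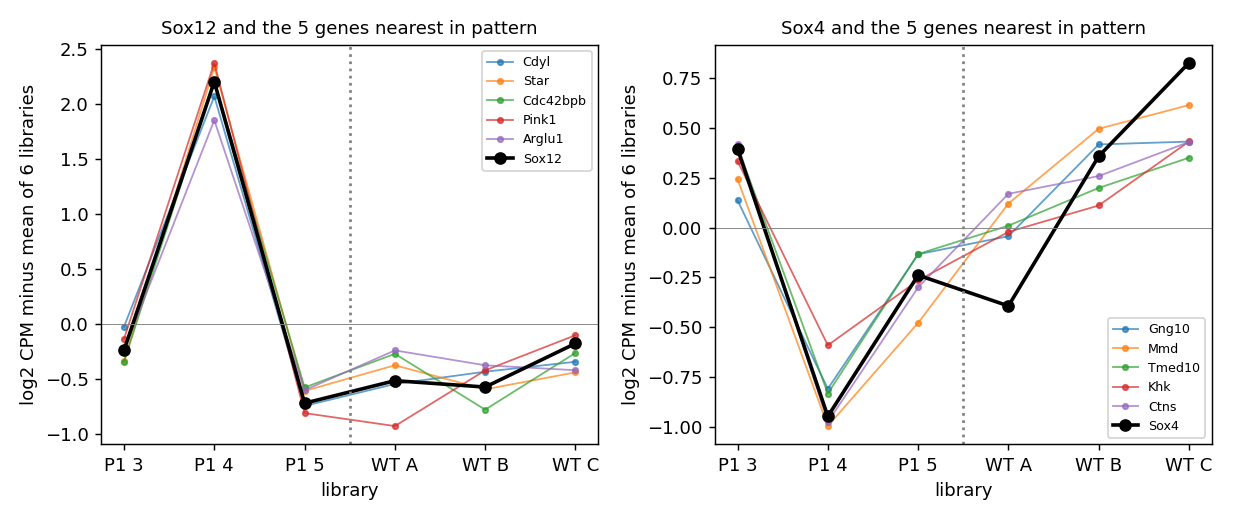
Log2 CPM minus the mean of the 6 libraries (y axis) for Sox12 (left, black) and Sox4 (right, black) with the 5 genes nearest to each in pattern (coloured), by library (x axis, P1 spleens left of the dotted line). The lines join the points of a gene and stand for no order of the libraries. Sox12 and its 5 matches peak in P1 replicate 4, and Sox4 and its 5 matches are lowest there. The matches were chosen for likeness in these libraries, so this follows from the choice.

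Of the 17 other Sox genes, 14 had too few reads to be tested, and 8 to 12 of the 17 had 0 counts in a P1 library and 8 to 10 in a WT library. The 3 that passed the filter on low counts, Sox5, Sox6 and Sox13, form the SoxD group, and all 3 were called higher. Sox6 and Sox13 passed it through the P1 spleens, where they are high, so this count is given as a description. Sox6, which helps to silence embryonic globin genes and to mature red cells in mice, was at 263, 380 and 49.2 CPM in P1 replicates 3, 4 and 5, against 0.242, 0.963 and 1.74 CPM in WT B cells. Its log2 fold change was 7.89 ± 0.99 (edgeR adjusted p = 0.00112). Its order over the P1 spleens was that of the summed erythroid markers, and their part in it was not tested. Sox5 was at 18.8, 70.1 and 18.1 CPM in P1 spleens, against 3.64, 3.92 and 3.40 CPM in WT B cells (3.27 ± 0.58, adjusted p = 0.0042), and its log2 fold change was 2.36 without P1 replicate 4 (adjusted p = 0.00271). Sox13 was at 6.71, 8.33 and 3.36 CPM in P1 spleens, against 0.182, 0 and 0.302 CPM in WT B cells (5.18 ± 0.84, adjusted p = 0.00296). The endothelial SoxF genes Sox7, Sox17 and Sox18, none tested, reached 3.93, 1.39 and 7.17 CPM in P1 replicate 4, and at most 0.086 CPM in the other 5 libraries. The endothelial marker Cdh5 was at 6.36, 53.5 and 5.34 CPM in P1 replicates 3, 4 and 5, against 1.76 to 2.50 CPM in WT B cells.

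Of 12 genes reported as SOX11 targets in human mantle cell lymphoma, 11 were tested, 1 was higher and 3 were lower, beside 16.9% and 11% of all genes tested. By DESeq2 1 was higher and 6 were lower, and with B-cell-centred scaling the counts were 7 higher and 0 lower. Under that scaling 12920 of all 15462 genes tested were higher and 142 were lower. The median log2 fold change was -0.66, against 0.02 for all genes tested. Prdm1, the plasma cell switch that SOX11 lowers through PAX5 in human lines, was at 28.4, 34.0 and 15.4 CPM in P1 spleens, against 7.94, 6.94 and 7.18 CPM in WT B cells (1.81 ± 0.35, edgeR adjusted p = 0.00642). Pax5, the B cell identity factor that SOX11 activates in human lines, was at 216, 151 and 427 CPM in P1 spleens, against 1138, 1366 and 1167 CPM in WT B cells (-2.21 ± 0.45, adjusted p = 0.00749). Under B-cell-centred scaling, which uses Pax5 as 1 of its 17 genes, it was at 0.01. The homing receptor gene Cxcr4 was at 119, 38.2 and 77.6 CPM in P1 spleens, against 399.9, 769.9 and 391 CPM in WT B cells (-2.73 ± 0.49, adjusted p = 0.00457), and at -0.35 and no longer called under that scaling.

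Bcl6, the germinal centre repressor, was at 46.6, 13.7 and 10.4 CPM in P1 spleens, against 118, 129.9 and 89.95 CPM in WT B cells (-2.24 ± 0.55, edgeR adjusted p = 0.0171). Bcl6 was no longer called after leaving out P1 replicate 4 (adjusted p = 0.0569), WT A (0.0509) or WT B (0.0589). Its value under B-cell-centred scaling was 0.26. The angiogenic growth factor gene Pdgfa was at 1.12, 1.85 and 2.67 CPM in P1 spleens, against 0.364, 0.835 and 0.832 CPM in WT B cells (1.46 ± 0.56, adjusted p = 0.0862), and was called under B-cell-centred scaling (3.74, adjusted p = 0.0014). Ptk2, which encodes focal adhesion kinase, was at 1.11 ± 0.41 (adjusted p = 0.0755) and was called without P1 replicate 3 (1.45, adjusted p = 0.00635) or with B-cell-centred scaling (3.67, adjusted p = 0.00146). The stem cell regulator Msi2 was at -0.66 (adjusted p = 0.0683) and was called lower without P1 replicate 4 (-0.80, adjusted p = 0.0183) and by DESeq2 (adjusted p = 0.0356). Smad3, a signal carrier of TGF-beta, was at -0.83 (adjusted p = 0.0758) and was called lower without P1 replicate 3 (-1.10, adjusted p = 0.0271), by DESeq2 (adjusted p = 0.0466) and with no filter (0.0476). Hilpda, Setmar and Dbn1 were at -1.15, -0.46 and -0.12 (adjusted p = 0.0618, 0.566 and 0.919). Cd70, a ligand of the TNF family, was not tested and had 0.688, 0 and 1.39 CPM in P1 spleens, against 0.0606 to 0.0756 CPM in WT B cells.

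**Figure D5:**
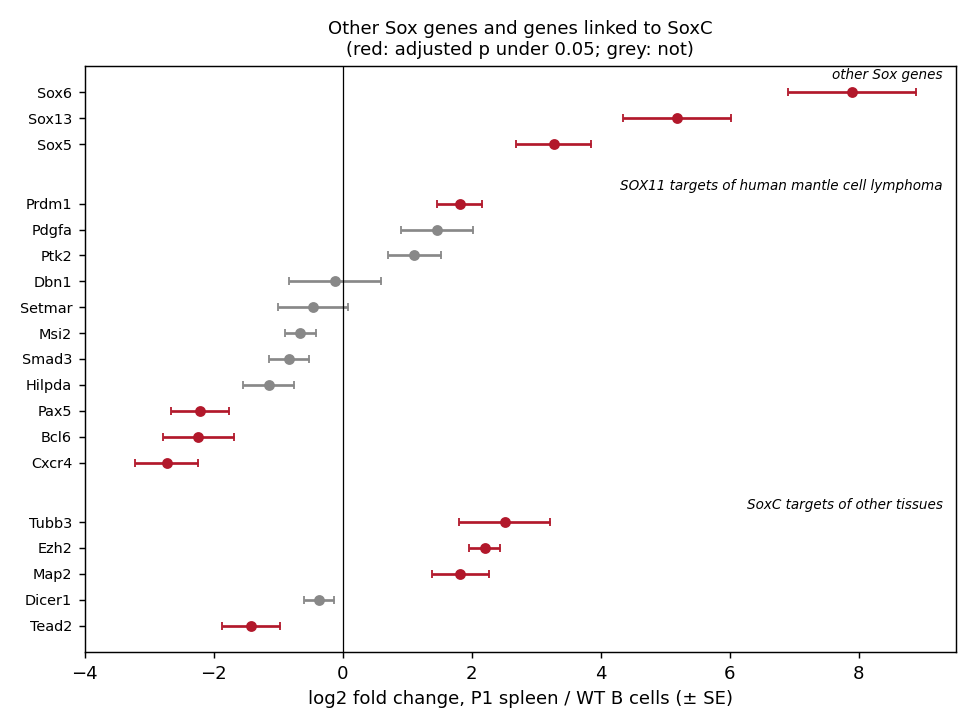
Log2 fold change, P1 spleen over WT B cells (x axis, with its standard error), of the tested genes among other Sox genes, SOX11 targets reported in human mantle cell lymphoma and SoxC targets reported in other tissues (rows). Of the 11 tested lymphoma targets, 1 was higher and 3 were lower, and the Sox genes drawn include Sox6 and Sox13, which passed the filter on low counts through the P1 spleens.

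Of 9 genes reported as SoxC targets in other tissues, 5 were tested. Of these, 3 were higher and 1 was lower, beside 16.9% and 11% of all genes tested. The median log2 fold change was 1.82, against 0.02 for all genes tested. By DESeq2 or with B-cell-centred scaling, which called 12920 of all 15462 genes tested higher, the count higher was 4. It was 2 with library totals or without P1 replicate 4, and 1 after leaving out any single WT library. The count lower was 0 after leaving out any 1 of the 6 libraries, with RLE or with B-cell-centred scaling. Ezh2, the Polycomb methyltransferase and a Sox4 target in mammary cells, was at 114, 90.5 and 90.3 CPM in P1 spleens, against 19.8, 22.0 and 22.5 CPM in WT B cells (2.20 ± 0.24, edgeR adjusted p = 0.000758). It was called under all 11 alternatives. The neuronal tubulin Tubb3 was at 2.67, 16.7 and 4.76 CPM in P1 spleens, against 1.15, 1.67 and 1.29 CPM in WT B cells (2.51 ± 0.71, adjusted p = 0.0307). It was not called after leaving out P1 replicate 4 (1.44, adjusted p = 0.0615) or any single WT library (0.0926 to 0.112). Map2, a microtubule protein of neurons, was at 1.82 ± 0.44 (adjusted p = 0.0166), which did not hold after leaving out WT A (0.0889), WT B (0.0554) or WT C (0.102), with library totals (0.082) or with no filter (0.0501), and Tead2, a Hippo pathway factor, was at -1.42 ± 0.45 (adjusted p = 0.0475). The Tead2 call was lost on leaving out any 1 of the 6 libraries (adjusted p from 0.068 to 0.227) and with RLE scaling (0.0503). Dicer1, the miRNA processing enzyme, was at -0.37 (adjusted p = 0.262).

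Of 13 TGF-beta, beta-catenin and POU genes linked to SoxC, 11 were tested, 3 were higher and 1 was lower, beside 16.9% and 11% of all genes tested, and the list's median was 0.14 on the log2 scale. The count lower was 5 by DESeq2, 4 with no filter, 3 without P1 replicate 3 or P1 replicate 5, and 0 with library totals or without any single WT library. With B-cell-centred scaling the counts were 10 higher and 0 lower, beside 12920 higher and 142 lower of all 15462 genes tested. The TGF-beta receptor genes Tgfbr1 and Tgfbr2 and the signal carrier Smad2 were at -1.20, -1.02 and -0.66 and not called (edgeR adjusted p = 0.0689, 0.0703 and 0.0569). Pou3f2, a POU factor that pairs with Sox11 on neural enhancers, had 47, 11 and 299 counts in P1 replicates 3, 4 and 5, against 0, 1 and 1 counts in WT B cells. That is 4.04, 2.55 and 34.7 CPM in P1 spleens, and a ratio of summed levels of 329.1 with an exact 95% counting interval of 90.45 to 2728 (adjusted p = 0.0041, edgeR). Pou3f2 passed the filter on low counts through the P1 spleens, where it is high. Its call, 1 of the 3 higher in this list, is thus given as a description. Lef1, a beta-catenin partner, was at 16.1, 17.8 and 12.8 CPM in P1 spleens, against 3.09, 2.95 and 3.02 CPM in WT B cells (2.36 ± 0.33, edgeR adjusted p = 0.00175). Its relative Tcf7 was at 2.93 ± 0.80 (adjusted p = 0.0265), a call lost without P1 replicate 5 (adjusted p = 0.0637) and after leaving out any single WT library (0.0667 to 0.109) or with no filter (0.173). T cells also express both, and their part in this was not tested. Tgfb1, which induces Sox4 in several cell types through its receptors, was at -1.20 ± 0.31 (adjusted p = 0.0207), not called after leaving out any single WT library (0.0685 to 0.0776) or with library totals (0.0527). Under B-cell-centred scaling it was at 1.21.

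Of 14 genes of early B cell precursors, the stage that needs Sox4, 7 were tested, 5 were higher and 0 were lower, beside 16.9% and 11% of all genes tested, and the list's median was 2.32 on the log2 scale. Sox4 is itself one of the 7 and was not called. The count higher was 3 without WT A or WT B. The T cell markers, 11 of 12 of them higher, had their highest sum in P1 replicate 3, as Il7r did, and all 12 erythroid markers were higher, and their part in these values was not tested. Myb and Erg, transcription factors of progenitors, rose by 3.20 ± 0.32 and 4.09 ± 0.57 (edgeR adjusted p = 0.000644 and 0.00166), and the stem cell marker Cd93 by 2.32 ± 0.38 (adjusted p = 0.00321). Erg, at 7 to 9 counts in WT libraries, passed the filter on low counts through the P1 spleens. Its call, 1 of the 5 higher, is thus given as a description. Il7r and Kit, receptors of early lymphoid cells, were at 2.56 ± 0.65 and 1.71 ± 0.45 (adjusted p = 0.0205 and 0.0231). Il7r was not called after leaving out any single WT library (adjusted p from 0.0667 to 0.0949), nor Kit after leaving out P1 replicate 3 (0.0532), WT A (0.102) or WT B (0.109) or with library totals (0.0909). The genes that define the pro-B and pre-B stages were near 0 in 2 of the 3 spleens. Rag1 was at 10.8, 0 and 0 CPM, Igll1 at 3.01, 0 and 0 CPM, and Vpreb1 at 2.32, 0 and 0 CPM in P1 replicates 3, 4 and 5. In WT B cells Rag1 was at 0.514 to 0.788 CPM, Igll1 at 0 CPM and Vpreb1 at 0 to 0.242 CPM. Replicate 3 was also the P1 spleen with the most Sox4 (13.5 CPM) and the least Sox11, and the part of such precursors in its Sox4 level was not tested.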

How the data were processed

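RNA of 3 P1 spleens and 3 WT B cell samples was sequenced with a directional kit, per the labels. The authors deposited raw counts per gene, made with Trim Galore, HISAT2, GRCm39 and featureCounts per the submitters' processing notes. Their settings, strand included, are not given in the sources used here. No label names independent tumours, so the tests capture variation among these samples, some of which may be technical. WT columns could not be tied to single mice.

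Of 56884 genes, 51948 (91.3%) got a symbol by ID. After filterByExpr and TMM scaling, the edgeR (4.0.16) quasi-likelihood test (R 4.3.3, robust, no covariate) compared P1 with WT, adjusting over all 15462 genes. RPKM used the table's exon length. Libraries of a group differed by a chi-square per degree of freedom of 19.5 to 280, so none repeated the sequencing of another library. Whether the P1 spleens share a tumour cannot be read from this. Intervals cover counting error only. The script was tested on simulated data, where it recovered 50 of 100 changes of 4 times and 97 of 100 changes of 64 times. Genes not called, Sox4 and Sox12 included, may therefore still differ. DESeq2 (1.42.0), RLE, library totals and B-cell-centred scaling, no filter and leaving out each library were tried.

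The members and lists were chosen with earlier results of these data known. Named genes are the members, list genes, the 5 genes nearest in pattern to each member, without gene models and pseudogenes, and neighbours within 250 kb. Ighv1-69, P1 means without replicate 4 and the count of genes at least 4 times above all other libraries were added after values were seen. The HMG box sequence of Sox12 is not reported here.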

Additional observations from a re-analysis of the deposited data

How the results depend on the processing

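Sox11 kept its direction and its call under all 11 alternatives, from 13.50 to 16.47 on the log2 scale. As Sox11 is a driver of the model, this is given as a description. Sox4 ran from -0.88 to -0.21 and was uncalled under the other 10, but stood at 1.88 under B-cell-centred scaling. Sox12 ran from -0.02, without P1 replicate 4, to 1.80 on leaving out a library, and stood at 4.22 and was called under B-cell-centred scaling. The 2618 higher and 1702 lower genes of the whole table became 12920 and 142 under that scaling, with 98.9% of calls higher against 60.6%. They ran from 1644 to 3206 higher and from 815 to 2313 lower on leaving out each library in turn. B-cell-centred scaling also turned Pax5 (0.01), Bcl6 (0.26), Msi2 (1.87), Dbn1 (2.64), Setmar (1.88), Hilpda (1.32), Smad3 (1.72), Tead2 (1.04), Dicer1 (2.09) and Tgfb1 (1.21) positive, all below its median of 2.45 but Dbn1. Dbn1 ran from -1.04 to 0.39 on leaving out a library, at 0.07, 0.29 and 0.39 without P1 replicate 3, P1 replicate 5 or WT C. The cause of these changes was not tested, other than the scaling's own shift of all genes. The mean Sox11 share of the SoxC level in P1 spleens was 91.65% with coding lengths of GENCODE M21, chosen after seeing the data in place of RefSeq protein lengths, which were not used here. No paired analysis was possible because the groups share fewer than 2 replicate numbers and the WT columns carry none. Depth limits the size of the Sox11 ratio, which rests on 1 WT count. For Sox4 and Sox12, at 23 to 241 counts a library, the spread between P1 spleens was wider than counting error.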
